A study of Mus musculus with 74 samples.

Results

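Loci called as bound by 3 or 4 different KRAB zinc finger proteins (KRAB-ZFPs) were collected from the merged peak calls of 67 mouse KRAB-ZFPs. The 200 bp windows around all peak summits were joined wherever they overlapped by 50 bp or more, which gave 48767 merged loci from 53011 peaks, and the members were chosen by the number of different KRAB-ZFPs called at a locus. This selection kept 642 loci, 496 with 3 KRAB-ZFPs and 146 with 4, which is 1.32% of all merged loci and holds 2072 peaks. Of the other loci, 45689 had 1 KRAB-ZFP, 2341 had 2 and 95 had 5 or more. The number of names is therefore what the rule used, and it is not read as a result.

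Each KRAB-ZFP was overexpressed with an epitope tag in pooled resistant cells and immunoprecipitated once, so that every protein stands on 1 ChIP-seq experiment. Of the 68 KRAB-ZFP samples, 18 carried an N-terminal 3XFLAG tag in F9 EC cells, a mouse embryonal carcinoma line (controls F9_Input and FLAG_control). In the same cells 31 carried a 3XHA tag, at the N terminus in some and the C terminus in others (controls F9_Input and HA_control). Another 10 proteins, HA-tagged at the C terminus in F9 EC cells, were mapped with Bowtie2 and called against Gm14296_control. The last 9 were HA-tagged at the C terminus in B6 ES cells and called against the input of those cells. The 6 control samples entered the calling only and have no peaks of their own among the values used here. These 4 arrangements are named setups below. The ES setup differs from the F9 setups in cell line, control, antibody and threshold, which cannot be told apart, while within the F9 setups the threshold varied from protein to protein. In the F9 setups the threshold on fold enrichment was 10 or 20 at a p-value of 1e-10 or 1e-5, whereas in ES cells only the p-value of 1e-5 was applied. No cell type marker can be checked in peak calls. The tags summed over the peaks of 1 KRAB-ZFP ranged from 1681 for Zfp600 to 540220 for Gm13152, and whole-library depth was not used here. For 4 KRAB-ZFPs, Gm14326, Gm14391, Gm14393 and Gm14418, the median false discovery rate of the peaks was 100%, and at least 1 of them was among the names at 42 of the 642 loci.

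KRAB-ZFPs are the largest family of DNA-binding repressors in mammals. Their tandem C2H2 fingers read the DNA sequence, and silencing at the bound site depends on a co-repressor, KAP1 (TRIM28), with trimethylated H3K9 as a frequent mark of the resulting heterochromatin. Many of these proteins bind transposable elements in embryonic stem and carcinoma cells, and their genes lie in clusters of young paralogues whose fingers often differ by few contact residues.

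The sequences of the loci on which the description turns are printed first, all on the plus strand of mm9. The first 4 are the 81 bases around the summits of the loci with the highest lowest fold enrichment among those called for Zfp534, Zfp617 and Zfp810. Capitals mark stretches with 2 or more copies in a row of the 5-base unit ATGGA or, on the other strand, TCCAT, including a unit cut by the edge of the window.
Intron of Myo7a, chr7:105208531-105208611: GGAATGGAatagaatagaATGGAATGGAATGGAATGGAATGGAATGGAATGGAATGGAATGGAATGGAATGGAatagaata
Intergenic, chr6:10136378-10136458: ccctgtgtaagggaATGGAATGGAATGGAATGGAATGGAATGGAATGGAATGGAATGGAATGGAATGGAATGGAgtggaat
Intron of Ano2, chr6:125826929-125827009: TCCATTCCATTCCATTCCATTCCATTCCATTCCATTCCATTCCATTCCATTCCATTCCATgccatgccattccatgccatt
Intergenic, also called for Gm30910, chr9:19379877-19379957: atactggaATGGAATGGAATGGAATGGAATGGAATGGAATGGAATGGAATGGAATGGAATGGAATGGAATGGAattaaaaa

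The next pair are the reference loci of the 2 largest sequence families among the 642 loci, with 65 and 21 loci. The first reference locus was itself called for Gm13154, Gm14419 and Zfp759, and the second for Gm13139, Gm13251 and Zfp808. In the first, capitals mark the 21 bases about the median summit of Gm4631 (left) and of Gm14419 (right). In the second they mark the 21 bases about the median summits of Gm13139 (left) and Zfp808 (right).
Family of 65 loci, intergenic, chr17:27491252-27491471: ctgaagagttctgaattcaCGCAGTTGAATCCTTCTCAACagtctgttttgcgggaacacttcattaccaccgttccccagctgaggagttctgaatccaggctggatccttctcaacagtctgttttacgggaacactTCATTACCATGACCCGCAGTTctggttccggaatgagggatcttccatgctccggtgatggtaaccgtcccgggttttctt
Family of 21 loci, intergenic, chr4:121755816-121756045: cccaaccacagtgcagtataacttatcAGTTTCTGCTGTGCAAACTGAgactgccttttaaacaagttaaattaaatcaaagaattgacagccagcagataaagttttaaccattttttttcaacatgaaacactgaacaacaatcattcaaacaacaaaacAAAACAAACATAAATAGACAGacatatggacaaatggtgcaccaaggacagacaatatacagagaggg

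The last 3 show a locus with 4 names, a locus called in 3 setups and a locus of Gm13225 and Gm13251. In the first 2 of these, capitals mark the 21 bases about each summit, which run together where summits are close, and in the third they mark a run of A.
Intron of Sgsm3, called for Gm13152, Gm14412, Gm21082 and Zfp810, chr15:80814337-80814581: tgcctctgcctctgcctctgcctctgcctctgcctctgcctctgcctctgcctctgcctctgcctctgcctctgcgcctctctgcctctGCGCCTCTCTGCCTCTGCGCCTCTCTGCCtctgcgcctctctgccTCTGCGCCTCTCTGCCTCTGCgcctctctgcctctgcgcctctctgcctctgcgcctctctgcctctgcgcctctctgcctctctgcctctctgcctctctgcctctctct
Intron of D17Wsu92e, called for Gm13152, Gm14419 and Zfp661, chr17:27906254-27906538: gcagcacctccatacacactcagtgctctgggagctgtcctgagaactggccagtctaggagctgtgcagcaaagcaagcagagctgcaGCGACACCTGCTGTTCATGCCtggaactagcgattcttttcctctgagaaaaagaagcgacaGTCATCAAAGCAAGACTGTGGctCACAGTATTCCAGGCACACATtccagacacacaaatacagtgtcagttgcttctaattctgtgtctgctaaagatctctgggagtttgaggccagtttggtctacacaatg
Called for Gm13157, Gm13225 and Gm13251, chr6:5773717-5773916: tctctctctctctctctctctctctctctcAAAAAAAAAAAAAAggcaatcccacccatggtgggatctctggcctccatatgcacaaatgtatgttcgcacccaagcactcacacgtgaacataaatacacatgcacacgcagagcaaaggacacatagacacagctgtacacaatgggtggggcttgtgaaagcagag

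The 642 loci were 202 to 479 bp long, with a median of 271 bp. The outermost summits of a locus lay 2 to 279 bp apart with a median of 71 bp, and at 88 loci (13.7%) all summits fell within 20 bp. No locus held 2 peaks of the same KRAB-ZFP. The fold enrichment of the weakest KRAB-ZFP at a locus, its lowest fold, had a median of 12.5 and ranged from 2.2 to 46.9, and the medians were similar for loci of 3 names (12.5) and of 4 names (12.6). Next to the limits of the rule, the 2341 loci with 2 names had a median lowest fold of 13.4 and the 43 loci with 5 names one of 12.0. In 20 members a window was joined by an overlap of 50 to 59 bp, with a median lowest fold of 12.6, and 11 further loci would have reached 3 or 4 names at an overlap of 40 bp, with a median of 13.1.

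Between them the loci carried 65 of the 67 KRAB-ZFPs. AW146154, with 159 peaks, and EtOHi1, with 67, had none in these loci. The representation was uneven. Gm13235 was called at 212 loci, Gm13251 at 194, Zfp457 at 176, Zfp759 at 166, Gm13145 at 152 and Zfp709 at 121. Together these 6 proteins made up 49.3% of all peaks in the loci, and at least 2 of them were present at 365 loci (56.9%). Gm13225 (75 loci), Gm14419 (72), Zfp872 (60) and Gm4631 (54) completed the 10 most frequent. With these included, 452 loci (70.4%) carried at least 2 of the 10.

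The share of a protein's own peaks that fell in such loci ordered the proteins differently. Gm13145 had 34.2% of its 444 peaks there, Zfp872 31.9% of 188, Zfp953 29.6% of 135, Gm14410 28.2% of 142 and Zfp938 22.4% of 134. In contrast, Gm14419 had 1.84% of 3906 peaks and Gm13225 2.10% of 3570. All 5 leading proteins by share had fewer than 500 peaks, and 4 of them shared the setup of HA-tagged proteins in F9 cells with the HA control. In that setup 9.80% of 12683 peaks lay in the loci, against 2.21% in the FLAG setup, 2.12% in ES cells and 1.70% in the F9 setup with Gm14296_control. All 5 leading proteins were tagged at the C terminus. Within the HA setup with the HA control, shares ran from 0% (AW146154) to 8.28% (Gm13139) for N-terminal tags. For C-terminal tags they ran from 0.676% (Zfp874a) to 34.2% (Gm13145). The part of the tag position was not tested. The plot of loci and shares by KRAB-ZFP gives both orders.

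**Figure D1:**
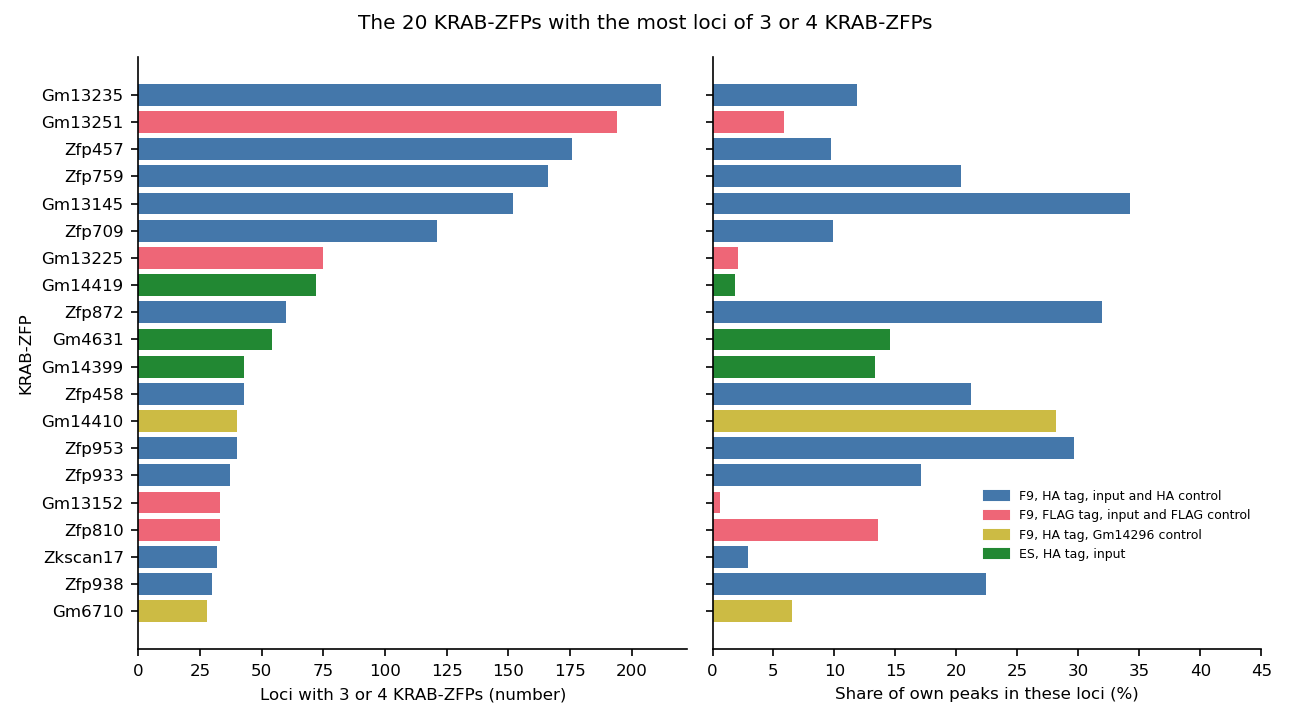
Number of loci with 3 or 4 KRAB-ZFPs (left, bars from 0) and the percentage of a protein's own peaks in them (right) for the 20 KRAB-ZFPs with most such loci, coloured by setup. Gm13235 led by number with 212 loci, and Gm13145 by share with 34.2%.

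The names combined into 376 different sets, of which 284 occurred once. Of 2211 possible pairs of KRAB-ZFPs, 403 occurred, and of 450 different triplets, 283 occurred at 1 locus and 55 at 5 or more. The 8 most frequent pairs were all made of the same 6 F9 proteins. Gm13235 and Zfp457 shared 84 loci, which is 39.6% of the loci of Gm13235 and 47.7% of those of Zfp457. Gm13145 and Zfp759 shared 67, Gm13235 and Gm13251 66, Gm13235 and Zfp759 61, Gm13145 and Gm13235 59, Gm13251 and Zfp457 56, and both Gm13251 with Zfp759 and Gm13235 with Zfp709 shared 53. Gm13235, Gm13145 and Gm13251 are encoded on chromosome 4, Zfp457 and Zfp759 on chromosome 13 and Zfp709 on chromosome 8, so that frequent pairs were found both within and between chromosomes. Of 620 loci for which the chromosome of every named gene was found in the annotation, 120 (19.4%) had all of them on 1 chromosome. That count is not limited to the F9 pairs. Gm14419, Gm4631, Gm14399 and Gm14410, the leading names of the largest sequence family, are all encoded on chromosome 2, and its loci add to the count. No such share was taken for other loci of several names, so it is a description only.

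Among triplets of these proteins, Gm13235, Gm13251 and Zfp457 shared 21 loci with a median summit span of 63 bp, Gm13145, Gm13251 and Zfp759 shared 20 with a span of 41 bp, and Gm13145, Gm13235 and Zfp457 shared 19 with a span of 38 bp. Within the pairs, summits were close as well. The median distance was 14 bp for Gm13145 and Zfp759 (quartiles 5 and 37), where 39 of 67 loci had summits within 20 bp, 20.5 bp for Gm13235 and Gm13251, 23 bp for Gm13235 and Zfp759, and 29 bp for Gm13235 and Zfp457. Gm13235 and Zfp709 lay farther apart, with a median of 48 bp. Because the windows had to overlap by 50 bp, distances over 150 bp can arise only through an intermediate protein. At the 67 loci of Gm13145 and Zfp759 the median fold enrichment was 24.2 for the first and 23.7 for the second, against thresholds of 20 for both. The 84 loci of Gm13235 and Zfp457 had medians of 13.1 and 12.5, against thresholds of 10. The medians of both pairs were thus close to the thresholds.

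**Figure D2:**
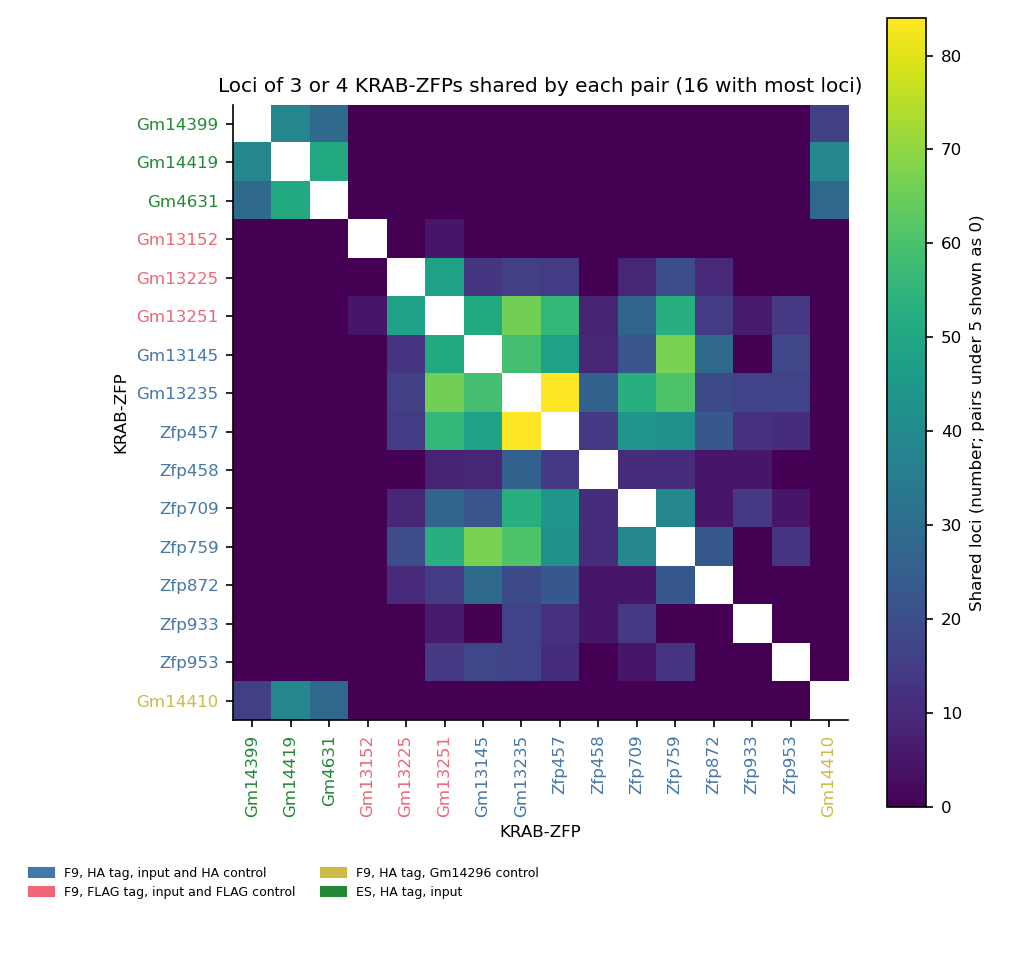
Number of loci with 3 or 4 KRAB-ZFPs shared by each pair among the 16 proteins with most loci, from dark (pairs under 5 are shown as 0) to yellow, with the names coloured by setup. Proteins of F9 cells around Gm13235 share many loci, up to 84 for Gm13235 and Zfp457, and Gm14399, Gm14419, Gm4631 and Gm14410 form a separate block.

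The loci of these frequent F9 pairs shared few words. In each of the 8 pairs the 14-base word found in most loci (both strands searched) was a run of A, with or without a final G, or an alternating run of A and C, held by 5 to 13 loci of a pair, for example in 12 of the 84 loci of Gm13235 and Zfp457 (14.3%) and in 6 of the 67 loci of Gm13145 and Zfp759 (8.96%). A run of 14 A was present in 119 of the 642 loci (18.5%) and 7.45% of all merged loci. Of these 119 loci, 40 were called for Gm13225 and Gm13251. The words of the 8 pairs were taken from the loci themselves, so their shares are descriptions. The 642 loci were also longer, with a median of 271 bp against 200 bp for all merged loci. This leaves more room in them for any word given here or below. The loci of Gm13235 and Zfp457 had a median 24-mer copy number of 1, meaning that a typical stretch of 24 bases in them occurs once in the genome, and 7.14% reached a copy number of 10, against 35.8% of all merged loci.

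Other loci were copies of repeated sequence. Their sequences were compared by alignment, and loci with 80% identity over 100 bp were joined into families. This placed 120 of the 642 loci (18.7%) in 10 families, of 65, 21, 15 and at most 4 loci. All 65 loci of the largest family were called for Gm14419, a KRAB-ZFP expressed in ES cells. Gm4631 was called at 50, Gm14399 at 39 and Gm14410 at 39. Over the 642 loci, the median false discovery rate of the peaks was 45.85% for Gm4631 and 60.78% for Gm14399. Over all their peaks it was 30.11% and 34.05%. Both had a median of 18 tags in the 642 loci, so many of these calls are weak. The rate there was 13.03% for Gm14410 and 0.295% for Gm14419. The 2 most frequent triplets of all, Gm14399 with Gm14419 and Gm4631, and Gm14410 with Gm14419 and Gm4631, had 27 loci each, and all of these were multi-copy. The median copy number of the family was 315, the loci lay on 17 chromosomes, 50 of 65 in intergenic sequence and 14 in introns, and the median identity to the reference locus was 95.6% over a median of 496.5 aligned bases. Its copies kept CpG sites, with a median observed to expected CpG ratio of 0.67 against 0.18 for the 642 loci. Every locus of both triplets held the word AAAACAGACTGTTG, present in 1.88% of all merged loci.

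Along the aligned copies of this family the 4 proteins followed an order. Counting from the first base of the reference locus, the median summit of Gm4631 lay at -60 (quartiles -100.5 and -6.75, 48 summits), that of Gm14410 at -33.5 (36 summits), that of Gm14399 at 0 (36 summits) and that of Gm14419 at 60 (quartiles 35 and 74, 60 summits). Within a copy, Gm4631 preceded Gm14419 at 45 of 45 loci, by a median of 105 bp (SD 61.9). Gm14410 preceded Gm14419 at 34 of 35 loci, with a median of 82 bp, and Gm14399 preceded Gm14419 at 28 of 34, with a median of 53 bp. Among the proteins other than Gm14419 the order was less regular. Gm4631 came before Gm14410 at 17 of 25 loci and before Gm14399 at 15 of 24, and Gm14410 came before Gm14399 at 11 of 14. Gm14419 also had the highest fold enrichment in the family, with a median of 35 and a range of 13.7 to 71.6. The medians were 12.4 for Gm4631, 15.3 for Gm14399 and 19.2 for Gm14410. Gm14419, Gm4631 and Gm14399 were called against the same input, and Gm14410 against Gm14296_control. The values of the ES proteins therefore do not rest on separate controls. Reads that fit several copies equally well were placed in 1 of them at random. The copy to which a tag is assigned is therefore uncertain, and its part in these calls was not tested. Whether the order holds without the peaks of high false discovery rate was not tested either.

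The order was also read at loci outside the selection. In 56 aligned copies called for exactly Gm14419 and Gm4631, Gm4631 came first in 53, with a median distance of 108 bp. For Gm14410 the count was 20 of 22 and for Gm14399 it was 46 of 50. Among all merged loci, 1318 matched the reference of the family, and 1111 of them had 1 name. Gm14419 was called at 1313 of the 1318, Gm4631 at 107, Gm14399 at 91 and Gm14410 at 67. Loci with 3 or 4 names made up 4.70% of these copies, so most copies with a Gm14419 peak had no second call. Matching copies took 47.2% of the 142 peaks of Gm14410, 28.8% of the 371 of Gm4631, 28.3% of the 322 of Gm14399 and 33.6% of the 3906 of Gm14419. Gm14410 was expressed in F9 cells and the other 3 in ES cells, so the shared copies spanned 2 cell lines.

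The family of 21 loci was called for Zfp808 at every locus and for Gm13139 at 14. Gm13251 (10 loci), Zkscan17 (8) and Gm13247 (8) were the next. It was AT-rich, with a median GC content of 38.8%, a median copy number of 8 and few CpG sites (observed to expected ratio 0.078). Both leading proteins were strongly enriched there, Gm13139 with a median of 63.7-fold (range 21.5 to 104) and Zfp808 with 73.5-fold (range 33.5 to 105). Their summits did not coincide. The median summit of Gm13139 was at position 98 of the reference locus (quartiles 93 and 100) and that of Zfp808 at 233 (quartiles 231 and 243), and within a copy Zfp808 followed Gm13139 at 14 of 14 loci, by a median of 133 bp (SD 16.4, range 115 to 175). At 35 aligned loci called for exactly these 2 proteins, outside the selection, Zfp808 followed at all 35, by a median of 130 bp. Of the other proteins, Gm13251 lay at a median of 102 and followed Gm13139 by a median of 5 bp (range -27 to 155, 9 loci), Gm13247 lay at 273 and Zkscan17 at 251.5. Matching copies accounted for 71.0% of the 169 peaks of Gm13139 and 70.0% of the 544 of Zfp808, but for 0.515% of the 3300 of Gm13251. The third family, of 15 loci, had no protein at more than 6 of its loci, Gm13251 leading, and a median copy number of 3. Its locus with the highest lowest fold, in an intron of Slc9a8, had 27.0-fold enrichment for Gm13251, 24.4 for Zfp759 and 25.7 for Zfp953.

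**Figure D3:**
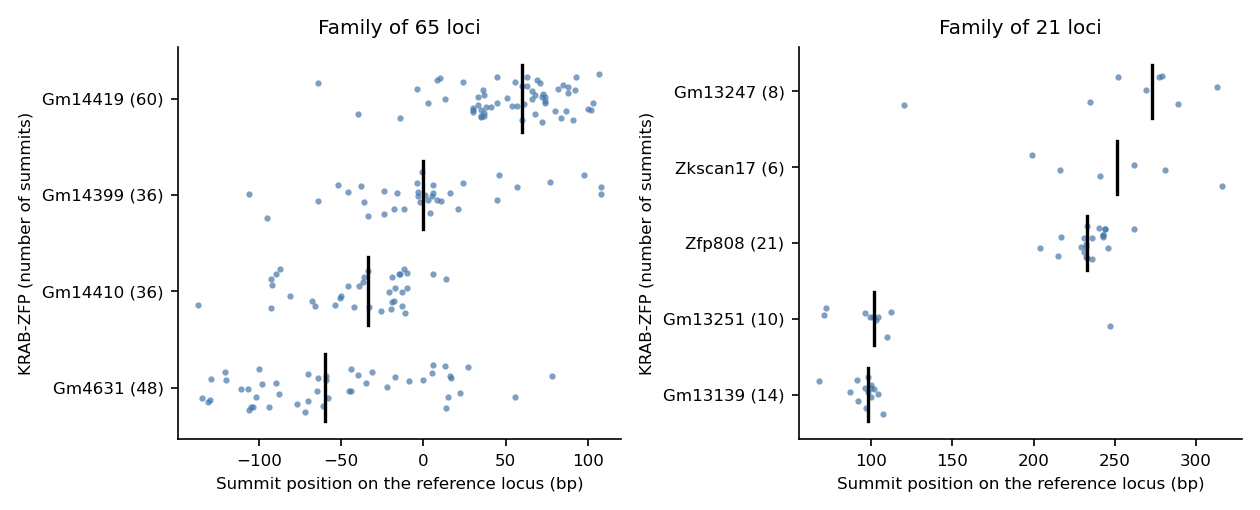
Summit positions, in bp from the first base of the reference locus of a family (negative values lie before it), for the proteins of the families of 65 loci (left) and 21 loci (right). Each point is the summit of 1 protein at 1 locus and each bar the median. The medians of Gm4631, Gm14410, Gm14399 and Gm14419 follow each other from -60 to 60, with overlapping ranges of points. Gm13139 at 98 and Zfp808 at 233 form separate groups.

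Gm13225 and Gm13251, both FLAG-tagged in F9 cells, shared 48 loci, 64.0% of the loci of Gm13225, and formed a different kind of pair. At none of these loci were their summits within 20 bp, and the median distance was 112 bp (quartiles 88.8 and 141). The loci were single copy (median 1) and 40 of 48 held a run of 14 or more A on one strand, which 7.45% of all merged loci held. Read along the strand that shows A, the summits of Gm13225 lay on either side of the centre of the run, at a median of 2.75 bp (quartiles -17 and 32.1, range -102 to 60), and 9 of 40 fell inside the run itself. Those of Gm13251 lay behind it, at a median of 120.5 bp (quartiles 105.5 and 139). Gm13251 was on the 3' side of Gm13225 at 40 of 40 loci, although the runs themselves fall on either genomic strand. The peaks of Gm13225 were wide, with a median called width of 2277 bp in loci of 3 or 4 names, against 278.5 bp for Gm13251. The median fold enrichment of Gm13225 there was 12.7, against a threshold of 10. How precisely its summits are placed within such wide peaks was not tested, so its positions and distances here and below are approximate. The printed example on chromosome 6 had a run of 14 A with the summit of Gm13225 2.5 bp from its centre (16.7-fold, 105 tags) and that of Gm13251 at 106.5 bp (27.2-fold, 82 tags).

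The same order held outside the selection. Of 208 loci called for exactly Gm13225 and Gm13251, 158 (76.0%) held a run, and Gm13225 came first at 158 of 158, with median positions of 19.5 and 120.5 bp. The run was present in 59.7% of 3205 Gm13225 windows with no other name and in 39 of the 48 windows shared with Gm13251. It was also in 20 of 27 Gm13225 windows at loci of 3 or 4 names without Gm13251. Of the Gm13251 windows, 5.69% of 2546 with no other name and 4 of the 48 shared ones held it. At loci of 3 or 4 names without Gm13225 the count for Gm13251 was 7 of 146. The other 23 proteins at these 40 loci had 54 summits, and all 54 were on the side of Gm13251, from 28 to 239.5 bp. Among those with 4 or more loci the medians were 134.5 bp for Gm13145 (7 loci), 146 bp for Gm13235 (6), 174 bp for Zfp457 (7), 175 bp for Zfp759 (4), 149.5 bp for Zfp872 (4) and 115.5 bp for Zfp882 (4). Over all 642 loci, none of the 20 loci that Gm13225 shared with Zfp759, the 16 with Gm13235, the 15 with Zfp457 or the 10 with Zfp872 had summits within 20 bp of each other.

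**Figure D4:**
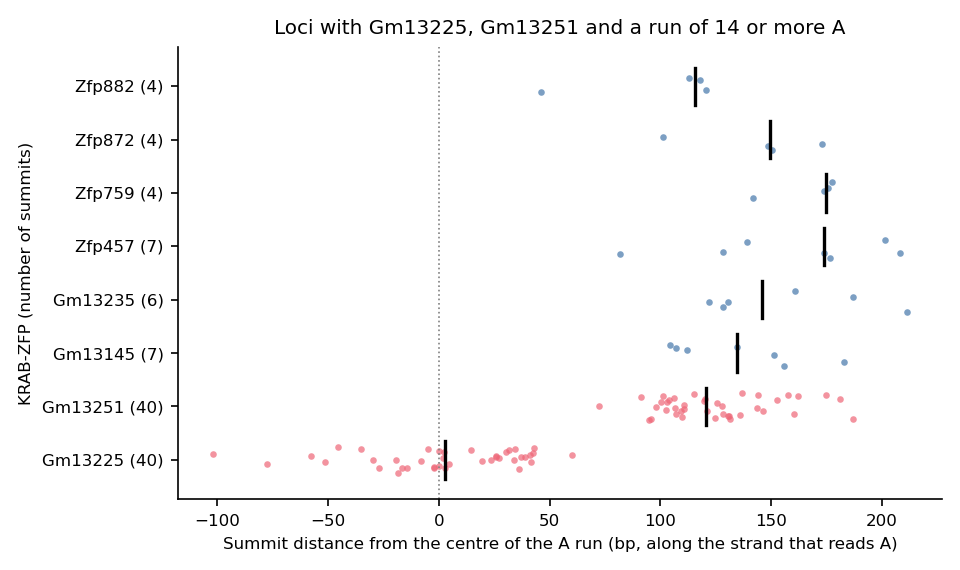
Distance of each summit from the centre of a run of 14 or more A (bp, along the strand that reads A) at the 40 loci called for Gm13225 and Gm13251 that hold such a run, for the proteins with 4 or more of these loci. Points are single loci and bars medians. Gm13225 spreads from -102 to 60 bp with a median of 2.75 bp, Gm13251 lies between 72.5 and 187 bp, and the other 6 proteins lie between 46 and 211.5 bp.

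Zfp534, Zfp617 and Zfp810, all FLAG-tagged in F9 cells, were called together at 6 loci, and at 5 of them the summits of all names fell within 13 bp. These loci include 3 of the 8 with the highest lowest fold of all 642. In the intron of Myo7a, an unconventional myosin gene, the fold enrichment was 46.9 for Zfp534, 54.0 for Zfp617 and 50.3 for Zfp810, from 25, 28 and 20 tags, with summits 13 bp apart. At the intergenic locus on chromosome 6 it was 41.3, 52.1 and 42.7, with summits 3 bp apart, and in the intron of Ano2, a calcium-activated chloride channel gene, 46.9, 40.5 and 47.7, with summits 9 bp apart. The highest values were those of the locus at chr17:4626235-4626608, 78.8, 81.03 and 67.8, where Gm30910 was the fourth protein, with 21.02-fold, and the outermost summits were 174 bp apart. All 6 loci held tandem copies of the printed 5-base unit, 50 to 270 bases in runs of up to 65. The 14-base word AATGGAATGGAATG from this repeat was present at 6 of 6 loci and at 19 of all merged loci (0.0390%). Of those 19, 15 were called for Zfp534, 15 for Zfp617 and 7 for Zfp810. Zfp534 was called at 52 merged loci in all, Zfp617 at 764 and Zfp810 at 243.

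Gm14412, Gm21082 and Zfp810 shared 9 loci with a median copy number of 4189 and a GC content of 63.7%, and all 9 held the word AGAGAGGCAGAGAG, found in 0.511% of all merged loci. The Sgsm3 locus printed above, called also for Gm13152, had 49.99-fold enrichment for Gm13152, 38.8 for Gm14412, 90.1 for Gm21082 and 88.0 for Zfp810, with 89, 157, 184 and 103 tags. Its lowest fold was the highest of all loci with 4 names. In another GC-rich set, Gm13152 and Gm14412 shared 9 loci and Gm13152 and Zfp46 shared 10, single copy and GC-rich (medians of 66.3% and 68.0%). Here the shorter 8-base word CCGCCTCC was present at 7 of the 10 against 3.57% of all merged loci, which were not matched for GC content. The most frequent 14-base word was at 4 of the 10. For Gm13152 and Gm14412 the most frequent word was at 6 of 9 with 8 bases and at 4 of 9 with 14. The locus in the intron of D17Wsu92e joined 3 setups, with 43.6-fold enrichment for Gm13152 (75 tags), 78.3 for Gm14419 (113 tags) and 47.6 for Zfp661 (85 tags).

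Multi-copy sequence was more frequent in the loci that included an ES protein. Of the 642 loci, 115 (17.9%, 95% Wilson interval 15.1 to 21.1) had a median 24-mer copy number of 10 or more, against 35.8% of all merged loci. Of the 86 loci with an ES name, 75 (87.2%) were multi-copy, and of the 556 without, 40 (7.19%). The largest family gave 65 of these 75, since all its loci were called for Gm14419 and had copy numbers of 54 or more. The difference therefore rests mostly on 1 repeat family. Gm14419 was at 69 of the 115, Gm4631 at 51, Gm14399 at 42 and Gm14410 at 39, and after the 2 largest families the most frequent name was Gm21082, at 13 of the 40 left. The loci were also poorer in CpG-rich sequence, with 89 (13.9%) at an observed to expected CpG ratio of 0.6 or more, against 20.1% of all merged loci. They lay somewhat more often in introns, 257 loci (40.03%) against 33.8%. Loci of 2 names had 37.8% in introns and 21.8% multi-copy, and loci of 5 or more names had 41.05% and 10.5%, so the members lay between these classes in both. The mix of proteins differs between the 642 loci and all merged loci. For example, 0.636% of the 5189 peaks of Gm13152 and 0.0176% of the 5685 of Gm14406 lay in the members. The part of this mix in these contrasts, and in that for transcript starts below, was not tested.

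All names came from 1 setup at 314 loci (48.9%), from 2 setups at 313 and from 3 at 15. The FLAG and HA setups of F9 cells together gave 232 loci and the HA setup alone 231, while 30 were made of ES proteins only, 38 of ES proteins with F9 proteins called against Gm14296_control, and 26 of FLAG-tagged proteins only. The median lowest fold was 15.9 for the FLAG-only loci, 12.8 for FLAG with HA, 12.3 for HA only and 10.05 for ES only. Since thresholds differed between setups, these medians are given as values and not compared. Of the 8 loci with the highest lowest fold, the eighth, at chr18:42545660-42545888, 8479 bp from the nearest transcript start, that of Pou4f3, had 47.7-fold enrichment for Gm13150, 74.0 for Gm21082 and 31.3 for Zfp661.

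The middle of 54 loci (8.41%, 95% Wilson interval 6.50 to 10.8) lay within 1 kb of a transcript start, against 11.2% of all merged loci. Gm13152 was at 17 of the 54 and these made up 51.5% of its 33 loci, Zfp46 at 7 of its 11 and Zfp493 at 8 of its 13, whereas Gm13235 had 6.13% of its 212 loci there and Zfp759 4.22% of 166. These shares were not set against those over all peaks of each protein, so they may describe its peaks in general. Of the 54, 26 (48.1%) were CpG-rich, against 61.5% of all merged loci near a start, and 50 were single copy (median copy number under 2).

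The 20 of these loci with the highest lowest fold, named by the gene at the start, opened with Plcl2, a phospholipase C-like gene, 24 bp from the start, where Gm14412 was enriched 35.95-fold, Gm13152 48.2-fold and Zfp810 80.4-fold within 11 bp. At Rimkla, which encodes a glutamate ligase, the lowest to highest fold was 34.0, 36.2 and 37.2 for Gm14412, Gm13152 and Zfp46, and at Def8 it was 30.1, 34.6 and 79.2 for Zfp599, Gm13154 and Gm13152. Gtf3c5, a subunit of transcription factor TFIIIC, was the first without Gm13152, with 29.5-fold for Zfp759, 30.6 for Gm13145 and 35.4 for Gm13251. At Pbrm1, a subunit of the PBAF chromatin remodelling complex, Gm13152 reached 86.3-fold and at Lrba Zfp810 reached 136-fold. The same trio of Gm13152, Gm14412 and Zfp46 was called at Rimkla, Memo1 and Htt, the huntingtin gene, where the values were 39.1 for Gm13152, 54.4 for Gm14412 and 22.1 for Zfp46. The remaining genes were Gm12892, Pde4d (a cAMP phosphodiesterase), Fbxo17, Nhlrc1 (a ubiquitin ligase), Mlxip, Inpp5f, Crot, Eif2ak4 (a kinase of the translation initiation factor eIF2), Spnb1 (a spectrin), Rfwd3 and Usp1 (both in the ubiquitin pathway), and Dhtkd1, with lowest folds from 15.7 to 27.7. The locus of Gm12892 is the printed reference of the family of 21 loci.

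The 7 gene groups listed by name were searched for loci. Within 10 kb of the gene, 1 of 29 annotated pluripotency genes had such a locus (Tbx3, called for Gm13152, Gm14412 and Zfp46), 2 of 48 imprinted genes (Blcap and Inpp5f), 1 of 32 KAP1 and heterochromatin genes (Dnmt3a, a DNA methyltransferase), 2 of 80 ribosomal protein genes (Rpl10a, with 2 loci, and Rps14), 1 of 89 histone genes (H3f3b), 7 of 458 zinc finger genes and none of 37 protocadherins. Of the zinc finger genes Zfp12 and Zfp316 shared 1 locus, and the others were Zbtb7c, Zfp277, Zfp407, Zfp462 and Zfp777. As shares of the 642 loci and of all merged loci, loci near pluripotency genes were 0.156% and 0.107%, near imprinted genes 0.312% and 0.1005%, near KAP1 and heterochromatin genes 0.156% and 0.123%, near ribosomal protein genes 0.467% and 0.170%, near histone genes 0.156% and 0.0779%, near zinc finger genes 0.935% and 1.29%, and near protocadherins 0% and 0.115%. Outside the zinc finger group these shares rest on at most 3 loci.

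Peaks in the loci were compared with peaks of the same KRAB-ZFP at loci where it was alone, which needs no comparison between experiments. For 48 KRAB-ZFPs with at least 5 peaks in each class, the median log2 fold enrichment was 0.11 higher on average in loci of 3 or 4 names (SE 0.05), with higher values in 36 of 48 proteins. The p-value was 0.033 in a two-sided sign-flip permutation test over KRAB-ZFPs, and 0.086 after Benjamini-Hochberg adjustment over the 3 measures compared. The log2 tag count differed by 0.13 (SE 0.07, higher in 31 of 48, permutation p = 0.058, adjusted 0.086) and the log2 called width by 0.035 (SE 0.04, higher in 33 of 48, permutation p = 0.37, adjusted 0.37). None of the 3 differences passed the adjusted threshold of 0.05. Each locus was called for 3 or 4 KRAB-ZFPs, so the differences of the 48 proteins share loci and are not independent. These p-values, and those given below within setups and without single proteins, can therefore be too small. Without Gm13157 the fold difference was 0.14 (adjusted permutation p = 0.0021) and the tag difference 0.17 (adjusted permutation p = 0.0066), and the fold also passed without Zfp882 or Zfp938 and the tags without Zfp938, so these calls depend on single proteins. The fold difference was 0.04 with a minimum of 3 peaks in each class (adjusted permutation p = 0.51), 0.06 with a minimum of 10 (0.23), 0.05 with means in place of medians (0.34) and 0.04 against loci of 2 names (0.12).

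Single proteins differed in both directions. Fold enrichment was higher in the loci for Zfp534 (median 44.1 against 23.2, 8 and 34 peaks), Zfp617 (54.0 against 28.9, 9 and 722 peaks), Gm13139 (63.7 against 34.8, 14 and 104 peaks) and Zfp808 (72.9 against 49.5, 22 and 445 peaks). Zfp810, the third protein of the tandem repeat, had 30.2 against 27.6, and Gm13251, also called in the family of 21 loci, 25.6 against 23.8. Tags did not follow the fold in Zfp534, with a median of 23.5 in the loci against 30 elsewhere, whereas Gm13139 had 144 against 50. Fold enrichment was lower for Gm13157 (26.7 against 65.7, 10 and 412 peaks), which also had 15.5 against 47 tags. Single proteins were not tested. Within setups the mean log2 difference in fold was 0.14 (SE 0.05, 23 proteins, 20 higher) for HA with the HA control, with a permutation p of 0.0050 and an adjusted value of 0.060 over the 12 values within setups, 0.05 (SE 0.17, 12 proteins) for FLAG, 0.04 (SE 0.03, 8 proteins, exact permutation p = 0.16) for F9 with Gm14296_control and 0.21 (SE 0.13, 5 proteins, exact permutation p = 0.19) for ES cells, where the smallest possible p is 0.0625.

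**Figure D5:**
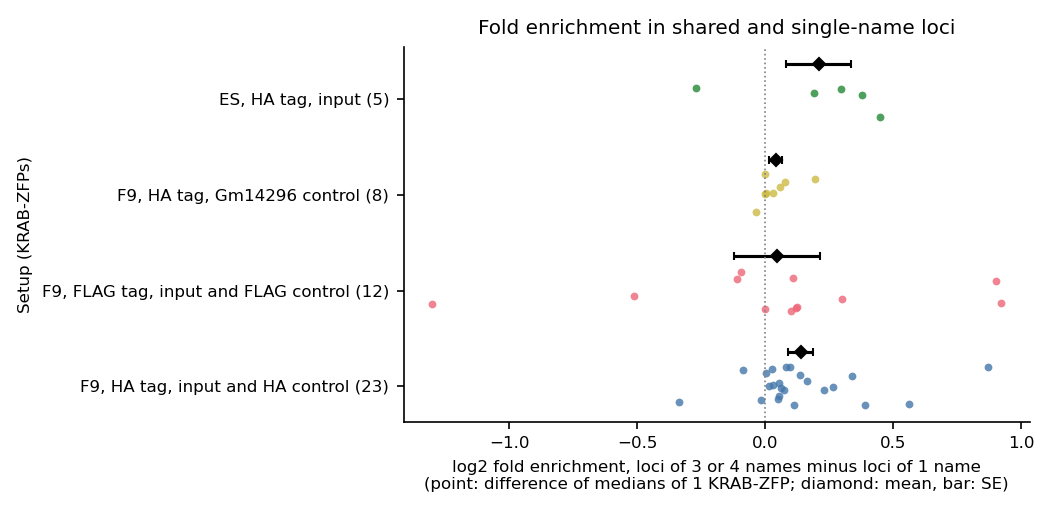
Difference in log2 fold enrichment between peaks in loci of 3 or 4 names and peaks at loci of 1 name, by setup. Each point is the difference of medians for 1 KRAB-ZFP, diamonds are means and bars their SE. The means lie between 0.04 and 0.21, and single proteins reach from -1.30 (Gm13157) to 0.92 (Zfp534).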

How the data were processed

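ChIP-seq peaks of 67 KRAB-ZFPs were taken from 1 deposited table. The authors mapped reads to mm9 with Bowtie or Bowtie2 and called peaks with MACS 1.4.2, each KRAB-ZFP on its own; multiply mapping reads were placed at the best match, or at 1 of several equal matches by a pseudo-random choice. The deposited columns hold the tag count of a peak, a score (-10 log10 of the p-value), the ratio of tags to control as fold enrichment, and a false discovery rate in percent, per the labels and the values; windows of 200 bp are centred on the summit. Names match the labels for all but 244 of the rows, of 1 name, which were not used; Zfp94 has no rows here. Starts were read as 0-based. Windows were merged at 50 bp, 24-mer copies counted in the same assembly (NCBIM37), transcript starts taken from GENCODE vM1, and families built with blastn 2.17.0 (E-value 1e-10) as connected groups. Summits were placed with Biopython 1.88 local alignments of loci extended by 200 bp. Sign-flip tests used 100000 resamples, or all sign patterns under 10 proteins, and were tested on simulated data. No protein had a replicate, and intervals cover counting error only.

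Named were the 10 KRAB-ZFPs with most loci, the 5 with the largest share of own peaks, the 8 commonest pairs, the 5 commonest triplets, the 8 loci and first 20 gene starts by lowest fold, and the 3 largest families; further pairs and words were singled out after their values were seen. The members, lists and tests were chosen with earlier results of these data known. Alternatives changed the overlap, thresholds, distances, copy number limits and proteins included.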

Additional observations from a re-analysis of the deposited data

Results flagged for a closer look

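The differences between peaks in loci of 3 or 4 names and peaks at loci of 1 name were compared between cell lines after the data had been seen, by permuting the cell line over the 48 KRAB-ZFPs. The log2 tag count difference was 0.57 in ES cells (5 proteins, 5 higher) and 0.08 in F9 cells (43 proteins), so that ES exceeded F9 by 0.49 (permutation p = 0.031, adjusted 0.047 over 3 measures). The log2 called width difference was 0.29 in ES cells and 0.006 in F9 cells, so that ES exceeded F9 by 0.28 (permutation p = 0.029, adjusted 0.047). For fold enrichment the gap was 0.11 (p = 0.43 by permutation). The ES peaks had no threshold on fold enrichment and another control and antibody, and cell line and these features cannot be told apart. Of the 5 ES proteins, Gm14419, Gm4631 and Gm14399 had 65 of 72, 50 of 54 and 39 of 43 of their loci in the same family of 65 repeat copies, so they are not independent values and the p-values are too small. The other 2, Gm14295 and Gm14401, had log2 tag differences of 0.29 and 0.66 and log2 width differences of -0.06 and 0.39.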

How the results depend on the processing

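Holding all peaks to a score over 100 and a fold over 20 before merging left 162 loci with 3 or 4 names, 58 of 1 setup, 19 near a transcript start and 27 multi-copy, and a fold over 10 left 425, 189, 44 and 50. Both filters remove peaks under these values in every setup. Within 5 kb of a start lay 163 loci (25.4% of the 642). Shares of all merged loci were not taken at this distance or under the filters, so these counts are descriptions only. With windows joined at 1 bp, the differences were 0.12 for fold and 0.16 for tags, both with an adjusted p of 0.025. In single-copy loci the width difference was -0.0031. Leaving out each KRAB-ZFP gave 0.089 to 0.136 for fold, 0.0987 to 0.165 for tags and 0.0199 to 0.0523 for width. Fold passed the threshold without Gm13157 (0.14, adjusted permutation p = 0.0021), Zfp882 (0.12, 0.043) and Zfp938 (0.11, 0.046), and tags without Gm13157 (0.17, 0.0066) and Zfp938 (0.14, 0.046). Under the other alternatives no direction or call changed and no count moved by over 1.5 times. Over all settings that kept every protein or dropped a group, fold ranged from 0.04 to 0.12 (adjusted p 0.025 to 0.51). No paired analysis was possible because each KRAB-ZFP has 1 sample, so replicate numbers link none; the tests themselves pair peak classes within a protein. Tests measure the spread over proteins that share loci and have 1 experiment each, and library depth was not used.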

Other observations

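Members were spread over 20 chromosomes and seldom lay side by side. Of the 642 loci, 16 had another within 10 kb, in 8 gaps. No gene hosted more than 2 of them, and Cacna1d, Kdm5b, Pbrm1, Rbpms, Scamp5 and Tmc2 were among the genes with 2. The share of merged loci with 3 or 4 names ranged from 0.928% on chromosome 7 to 1.83% on chromosome 9. A family of 3 loci, all in introns on 1 chromosome and with a median copy number of 40, was called for Gm13145 and Zfp759 at each locus. A further family of 3 loci with a median copy number of 1218 had Gm21082 at each. These were singled out after their values were seen and were not tested.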
